A study of Mus musculus with 10 samples.

Results

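The Ifi200 cluster is a run of related genes on mouse chromosome 1 whose proteins bind DNA and are induced by interferon. It is described here through 6 members chosen by symbol, Ifi204, Ifi203, Ifi205, Mnda, Mndal and Aim2. All 6 were listed among the 24411 gene symbols in the counts, together with 6 other symbols of the same cluster. The counts came from 10 RNA-seq libraries of mouse microglia, the resident macrophages of the brain. All cultures were treated at 10 uM with EPZ-6438, a compound that blocks the histone methyltransferase EZH2. The groups were primary microglia with EPZ-6438 and lipopolysaccharide at 10 ng/ml for 4 h (PM_EPZ_LPS, n = 3), primary microglia with EPZ-6438 alone (PM_EPZ, n = 3), BV2 cells with EPZ-6438 and the same lipopolysaccharide (BV2_EPZ_LPS, n = 2) and BV2 cells with EPZ-6438 alone (BV2_EPZ, n = 2). Lipopolysaccharide (LPS) is a bacterial cell wall component sensed by Toll-like receptor 4.

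Primary microglia were shaken off mixed glial cultures made from the pooled whole brains of 12 ICR mice aged 3 days, and more than 92% of the cells were CD11b+ by flow cytometry, per the labels' protocols. BV2 is a single immortalised mouse microglial line. Mouse strain and cell type therefore cannot be told apart in any difference between primary microglia and BV2 cells. No culture lacking EPZ-6438 was analysed here, and no value below measures what the compound itself did. The labels do not say that replicates came from separate cultures, and the spread on which the p-values rest may therefore be technical. In bulk RNA, fewer cells of a type and less RNA per cell cannot be told apart.

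Proteins of this family carry a HIN domain that grips the DNA backbone, and most also carry a pyrin domain through which they meet partner proteins. Aim2 detects DNA in the cytosol and gathers the adaptor Asc (gene Pycard) and caspase-1 into an inflammasome, which matures interleukin-1 beta and interleukin-18. Ifi204 has been linked to the STING pathway, which answers cytosolic DNA with interferon beta. Type I interferon acts on its targets through ISGF3, a transcription factor complex that binds a DNA element called the interferon-stimulated response element (ISRE).

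On GRCm38.p6 (the mm10 assembly), with RefSeq coordinates, the 11 cluster symbols that could be placed spanned 682.2 kb, chr1:173349547-174031755. Aim2 lay at one end on the plus strand, at chr1:173349547-173466040. The other 5 members lay on the minus strand: Ifi204 at chr1:173747293-173767069, Mndal at chr1:173857215-173880382, Mnda at chr1:173896339-173913087, Ifi203 at chr1:173920400-173942866 and Ifi205 at chr1:174011998-174031755. The RefSeq table lists Mnda as a synonym of Ifi211.

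The RefSeq promoter table, which holds 250 bases before to 50 bases after a gene's start, matched 5 of the 6 members with 7 windows, and 10 of all 12 cluster symbols. An ISRE core, searched on both strands as GAAANNGAA, was found in 4 of the 5 members (Ifi203, Ifi205, Mnda and Mndal) and in 7 of the 10 cluster symbols, while 9.76% of 27025 genes in the table had a window with these letters (8.56% of 32851 windows). The 39 bases around the core are shown because these genes rose together with LPS and because the stretches resemble each other. They are written on the gene's own strand, and capitals mark the core.
Ifi203: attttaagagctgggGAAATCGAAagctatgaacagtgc
Mndal: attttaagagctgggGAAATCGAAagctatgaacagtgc
Mnda: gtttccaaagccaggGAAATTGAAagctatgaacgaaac
Ifi205: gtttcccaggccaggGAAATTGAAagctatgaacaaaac
AI607873: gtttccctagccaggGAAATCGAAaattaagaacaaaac
Pydc3: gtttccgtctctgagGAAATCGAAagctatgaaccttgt
The stretches of Ifi203 (chr1:173942504-173942542) and Mndal (chr1:173880200-173880238) were the same at 39 of 39 positions. Mnda (chr1:173913060-173913098) matched Ifi203 at 28 positions and Ifi205 (chr1:174031866-174031904) at 27. Of the other cluster symbols, AI607873 (chr1:173741827-173741865) matched at 26 and Pydc3 (chr1:173673592-173673630) at 28, and Pydc4 (chr1:173599322-173599360) carried the same 39 bases as Pydc3. The core began 35 bases before the start of Ifi203, 36 before that of Mndal, 37 before that of Mnda and 134 before that of Ifi205. Ifi205 held a further match on the other strand at 24 bases after its start, and a further start of Mndal held one on the other strand 53 bases before it. A match of letters is a description and does not show that a factor binds there. All windows here and below are from the GRCm38.p6 reference assembly. The promoter sequences of the ICR mice and of BV2 cells were not read.

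The windows of Aim2, Pyhin1 and Ifi202b held no ISRE core. Among them were both the smallest rise with LPS in primary microglia among the 6 genes, that of Aim2, and larger ones, with log2 fold changes of 8.16 for Pyhin1 and 4.82 for Ifi202b. The first listed start of Ifi203 also had a window without the core. The table's start of Aim2 lies 71.1 kb inside the RefSeq gene given above, so that its window (chr1:173420354-173420653) does not cover the gene's outermost start, and positions for Aim2 count from this internal start. The window is printed whole beside the window of the second listed Ifi203 start (chr1:173942443-173942742), in which capitals again mark the core.
Aim2: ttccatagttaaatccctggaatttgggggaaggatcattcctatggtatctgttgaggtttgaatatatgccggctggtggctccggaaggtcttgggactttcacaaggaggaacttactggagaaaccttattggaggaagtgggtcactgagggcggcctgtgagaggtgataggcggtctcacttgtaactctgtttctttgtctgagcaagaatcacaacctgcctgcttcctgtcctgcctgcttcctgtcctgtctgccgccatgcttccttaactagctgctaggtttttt
Ifi203: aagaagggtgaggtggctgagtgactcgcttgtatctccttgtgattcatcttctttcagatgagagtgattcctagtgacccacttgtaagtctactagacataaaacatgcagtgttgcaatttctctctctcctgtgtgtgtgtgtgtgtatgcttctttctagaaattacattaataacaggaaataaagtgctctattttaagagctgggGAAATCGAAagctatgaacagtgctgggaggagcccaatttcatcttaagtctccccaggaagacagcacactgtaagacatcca
The letters of an ETS core, GAGGAA, were found in the Aim2 window 140 and 113 bases before the internal start, in no other member, and in 28.3% of all windows. In Pydc3 and Pydc4 these letters overlapped the ISRE core. The GAS element, searched as TTCNNNGAA, was found in 0 of the 5 members, against 8.3% of all windows. An NF-kB core, searched as GGANTTTCC, was found in 0 of the 5 as well, against 1.25% of all windows.

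**Figure D1:**
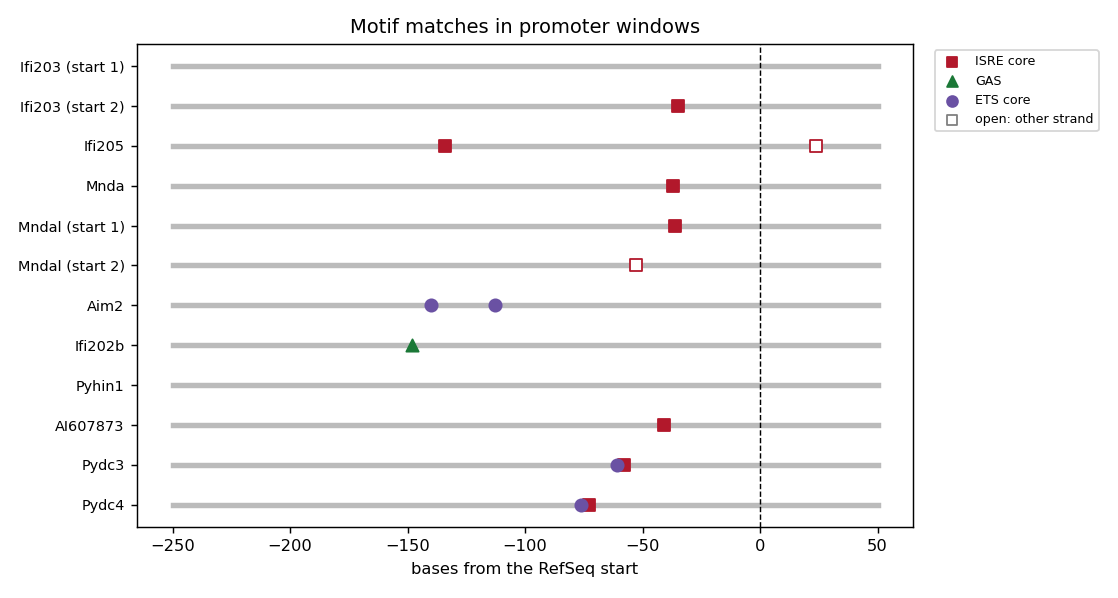
Places of motif letters in the RefSeq promoter windows of 5 members and 5 other cluster symbols. Each grey line is 1 window from 250 bases before to 50 bases after a start (horizontal axis, bases from the start; dashed line, the start), filled symbols are matches on the gene's strand and open symbols on the other strand. The ISRE core sits 35 to 37 bases before the start in Ifi203, Mndal and Mnda and 134 bases before it in Ifi205, and Aim2 has ETS core letters only.

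Each library held 2.751 to 3.684 M (1e6) reads assigned to genes, and the floor of 3 counts, which a count of 0 allows, corresponded to 0.845 to 1.23 CPM (counts scaled to 1e6 per library). Rn45s, the ribosomal RNA precursor, took 15.7% to 51.7% of gene counts. PM_EPZ_LPS replicate 1 stood apart from replicates 2 and 3, with a chi-square over degrees of freedom of 61.2 and 66.9 against them, and 2.65 between replicates 2 and 3. The Rn45s share was 43.75%, 15.7% and 16.0% in PM_EPZ_LPS replicates 1 to 3, against 50.3%, 51.7% and 40.95% in PM_EPZ, so that replicates 2 and 3 lay below every PM_EPZ library and replicate 1 within their range. In BV2 libraries it was 27% to 30.15%. All 14 microglia and macrophage markers were detected in primary microglia and 13 of 14 in BV2 cells, where Sall1 was at 0. Their summed level was 2587 to 3004 CPM in PM_EPZ_LPS, 2560 to 2983 CPM in PM_EPZ, 2037 to 2163 CPM in BV2_EPZ_LPS and 2044 to 2153 CPM in BV2_EPZ. The 10 astrocyte markers summed to 941 to 1616 CPM in PM_EPZ_LPS and 930.1 to 1535 CPM in PM_EPZ, so RNA of these markers was present in the primary libraries. They summed to 38.0 to 41.6 CPM in BV2_EPZ_LPS and 41.6 to 43.0 CPM in BV2_EPZ, with 9 and 8 of the 10 at 0. Levels below are CPM on library sizes scaled by the trimmed mean of M values (TMM), and differences between groups are log2 fold changes ± SE with p-values adjusted over all tested genes.

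With LPS, all 6 members rose in primary microglia, by 2.02 to 8.33 on the log2 scale. Among all 10664 genes tested there, 21.4% were called higher at an adjusted p under 0.05. Ifi204, Ifi205, Mnda and Mndal had too few counts in PM_EPZ to pass the filter on low counts without their LPS libraries. They were thus tested only because they were high with LPS. With no such filter all 6 were called as well. The median log2 fold change was 5.26 over the 6 members and -0.03 over all tested genes. In each of the 6 genes the lowest library with LPS lay above the highest library without it, as in 26.6% of all tested genes. Summed over the 6, the level was 1089, 1019 and 1265 CPM in PM_EPZ_LPS, against 42.3, 42.1 and 45.4 CPM in PM_EPZ.

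Ifi204, the member linked to STING, had the highest level per kilobase of longest transcript of the 6 in PM_EPZ_LPS, a place that Aim2 takes with the median transcript length. It stood at 363.5, 305.2 and 395.2 CPM in PM_EPZ_LPS, against 3.37, 4.09 and 2.46 CPM in PM_EPZ. The 2 groups were far apart, with a mean of 354.7 ± 45.6 CPM in PM_EPZ_LPS and 3.31 ± 0.814 CPM in PM_EPZ (SD, n = 3 each). The log2 fold change was 6.73 ± 0.19 (adjusted p = 1.12e-15), or 106.1-fold.

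Ifi203, an interferon-inducible family member whose function is less well defined, stood at 275.8, 270.8 and 328.3 CPM in PM_EPZ_LPS, against 9.74, 10.6 and 11.3 CPM in PM_EPZ. The groups were separated by a wide gap, with little spread within PM_EPZ. Its log2 fold change was 4.77 ± 0.15 (adjusted p = 5.62e-15), or 27.3-fold.

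Ifi205 was close to undetected before LPS. Its counts were 314, 391 and 567 in PM_EPZ_LPS, against 0, 0 and 3 in PM_EPZ, and the levels with LPS were 123, 124.7 and 160.7 CPM. Because PM_EPZ held 3 counts in all, a ratio with a 95% counting interval describes it best, 366.1 with bounds of 125 and 1778. The fitted log2 fold change of 8.33 ± 0.36 (adjusted p = 8.17e-11) depends on the prior count at such a level.

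Mnda, named after the human myeloid cell nuclear differentiation antigen, stood at 111.6, 121.5 and 132.1 CPM in PM_EPZ_LPS, against 3.00, 2.45 and 5.28 CPM in PM_EPZ. Its log2 fold change was 5.04 ± 0.21 (adjusted p = 1.92e-13), or 32.9-fold. Mndal, the Mnda-like gene beside it, stood at 125.0, 116.4 and 140.3 CPM in PM_EPZ_LPS, against 3.37, 2.86 and 2.11 CPM in PM_EPZ. The libraries of both genes separated completely by treatment, as in 26.6% of all genes tested in primary microglia. Mndal had a log2 fold change of 5.49 ± 0.20 (adjusted p = 3.14e-14), or 44.9-fold.

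Aim2, the inflammasome sensor, began from the highest level per kilobase of the 6, with either length, and rose least. It stood at 90.5, 80.1 and 108.0 CPM in PM_EPZ_LPS, against 22.9, 22.1 and 23.2 CPM in PM_EPZ. The means were 92.9 ± 14.1 CPM in PM_EPZ_LPS and 22.7 ± 0.586 CPM in PM_EPZ (SD, n = 3 each), and the log2 fold change was 2.02 ± 0.15 (adjusted p = 1.94e-09), or 4.05-fold. Its interval, 1.72 to 2.31, did not reach the lowest interval bound of any other member, 4.47 for Ifi203.

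**Figure D2:**
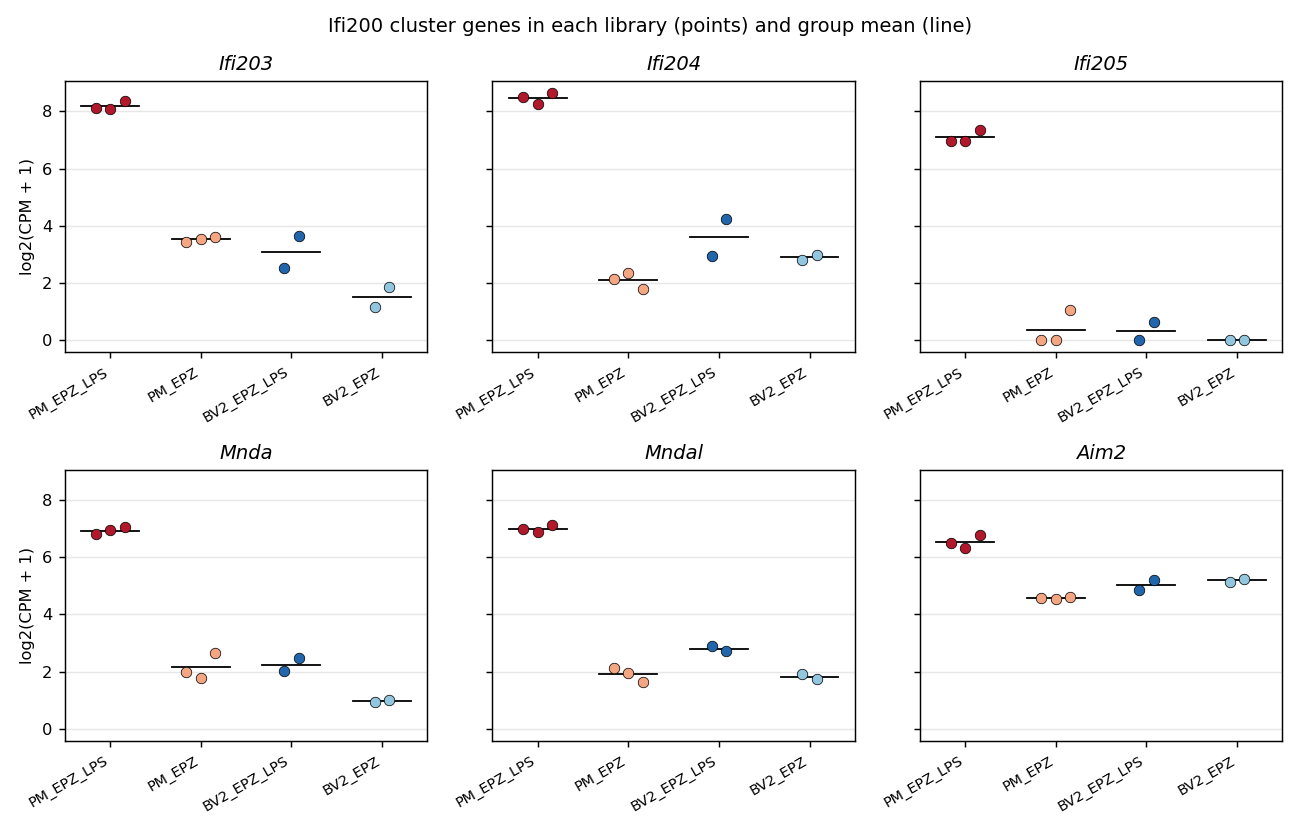
Level of the 6 genes in each library, as log2(CPM + 1) on the vertical axis, by group (points, libraries; lines, group means of the plotted values). The 3 PM_EPZ_LPS libraries lie above every other library in each panel, and Aim2 is the one gene above 4 on this scale in every library.

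These responses did not rest on the library that stood apart. Without PM_EPZ_LPS replicate 1 the log2 fold changes were 6.72 for Ifi204, 4.82 for Ifi203, 8.41 for Ifi205, 5.10 for Mnda, 5.51 for Mndal and 2.04 for Aim2, and all 6 were called. With Rn45s and the other abundant structural RNAs left out of the counts they ran from 2.04 for Aim2 to 8.35 for Ifi205, and again all 6 were called. The summed astrocyte markers overlapped between PM_EPZ_LPS and PM_EPZ, and of the 9 astrocyte markers tested 1 rose and 2 fell. Of the 13 microglia and macrophage markers tested 2 rose and 3 fell. Among all genes tested, 21.4% rose and 17.8% fell. Fibroblast markers summed to 82.3 to 137.8 CPM in PM_EPZ_LPS and 105.6 to 323.4 CPM in PM_EPZ. The monocyte and neutrophil markers Ccr2, S100a9 and Mpo were at 0 in both primary groups.

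Near-identical sequence limits how well some members can be told apart. Of all distinct 101-base words in the GENCODE vM21 transcripts of Mnda (listed there as Ifi211), 56.7% also occurred in transcripts of another gene, chiefly Ifi205. The share was 15% for Ifi205 and 10.6% for Ifi204, in both cases mainly shared with Mnda. It was 6.25% for Mndal, 2.79% for Ifi203 and 0% for Aim2. Reads from shared stretches map to several places, and reads that did so were left out of the gene counts, so the levels of Mnda, Ifi205 and Ifi204 are uncertain. Exon bases shared on the same strand with a neighbour made up 4.27% of Mndal and 0.552% of Ifi203.

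In BV2 cells, 4 of the 6 members passed the filter on low counts and 1 of them, Ifi203, was called higher with LPS. The share of all 9321 tested genes called higher was 3.69%. Ifi203 and Mndal passed the filter only through their LPS libraries, where they were higher. With no filter Ifi203 was called as well. The median log2 fold change was 1.13 over the 4 tested members and -0.01 over all tested genes.

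Ifi203 stood at 4.70 and 11.6 CPM in BV2_EPZ_LPS, against 1.25 and 2.64 CPM in BV2_EPZ. Both LPS libraries lay above both others, as in 17.1% of all genes tested there. The LPS libraries differed from each other by more than the lower one differed from BV2_EPZ. The log2 fold change was 2.12 ± 0.54 (adjusted p = 0.0421). The call was lost without BV2_EPZ replicate 1 (log2 fold change 1.69, adjusted p = 0.0684), without BV2_EPZ_LPS replicate 2 (1.31, adjusted p = 0.355) and with DESeq2 (2.12, adjusted p = 0.141), in a range of 5.61e-05 to 0.355 over 12 alternatives.

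Ifi204 stood at 6.71 and 18.03 CPM in BV2_EPZ_LPS, against 5.93 and 6.94 CPM in BV2_EPZ. The lower LPS library lay between those without LPS. The log2 fold change was 1.01 ± 0.42 (adjusted p = 0.285), and it was 0.11 without BV2_EPZ_LPS replicate 2 (adjusted p = 0.95) and 1.53 without BV2_EPZ_LPS replicate 1 (adjusted p = 0.00186), with p-values of 0.00186 to 0.95 over 12 alternatives.

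Mndal stood at 6.38 and 5.64 CPM in BV2_EPZ_LPS, against 2.81 and 2.31 CPM in BV2_EPZ. Both LPS libraries lay above both others, as in 17.1% of all genes tested in BV2 cells. Its log2 fold change of 1.24 ± 0.40 did not pass the test (adjusted p = 0.127), with an interval of 0.46 to 2.03. Mnda had 9 and 16 counts in BV2_EPZ_LPS, against 3 and 3 in BV2_EPZ, and was not tested in the BV2 libraries alone. Mnda entered the fit over all 4 groups only through the primary libraries, where it was higher, and these also enter its estimate of spread. In that fit its BV2 log2 fold change was 1.94 ± 0.53 (adjusted p = 0.0257). In the BV2 libraries alone with no filter on low counts it was 1.98 ± 0.64 (adjusted p = 0.04). Ifi205 had 0 and 2 counts in BV2_EPZ_LPS and 0 in both BV2_EPZ libraries, at or under the floor in each, so no fold is given.

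Aim2 was well above the floor in every BV2 library. It stood at 28.2 and 36.3 CPM in BV2_EPZ_LPS, against 34.3 and 36.7 CPM in BV2_EPZ. The groups overlapped and the log2 fold change was -0.09 ± 0.20 (adjusted p = 0.907). Its interval, -0.48 to 0.29, lay below the 1.72 to 2.31 of the response in primary microglia.

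The response to LPS differed between primary microglia and BV2 cells in 5 of the 6 members, tested as an interaction over all 10 libraries, and each of the 5 differences was positive. Of all 11626 genes tested, 8.65% had a difference called higher. The difference of log2 fold changes was 5.76 ± 0.55 for Ifi204 (adjusted p = 7.16e-07), 4.30 ± 0.52 for Mndal (adjusted p = 4.63e-07) and 2.16 ± 0.25 for Aim2 (adjusted p = 2.12e-07). These 3 genes were called whichever single library was left out.

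The difference was 3.11 ± 0.77 for Mnda (adjusted p = 0.00578) and 2.69 ± 0.61 for Ifi203 (adjusted p = 0.00299). Both rest on few BV2 counts. Mnda lost its call without BV2_EPZ replicate 1 (3.16, adjusted p = 0.0755) and without BV2_EPZ replicate 2 (3.07, adjusted p = 0.0829), in a range of 0.00113 to 0.0829 over 18 alternatives. Ifi203 lost it without BV2_EPZ replicate 2 (2.09, adjusted p = 0.211), in a range of 3.6e-05 to 0.211. Ifi205 was not called, and its BV2 counts are too few for a fold.

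**Figure D3:**
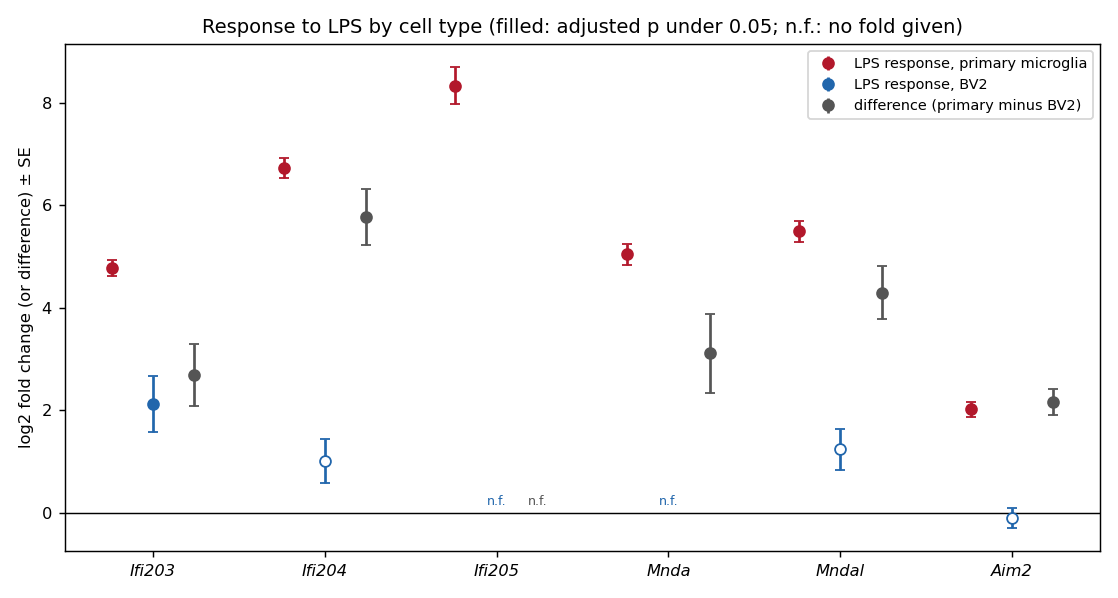
Log2 fold change with LPS in primary microglia and in BV2 cells and the difference between these responses, for each of the 6 genes (points, estimates; bars, SE; filled, adjusted p under 0.05; n.f., no fold given). Responses in primary microglia run from 2.02 for Aim2 to 8.33 for Ifi205, and those in BV2 cells from -0.09 for Aim2 to 2.12 for Ifi203.

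Without LPS the members did not share a direction between the cell types. Of the 6, 2 were called higher and 1 lower in PM_EPZ than in BV2_EPZ, while 41.5% of all 11626 tested genes were called higher and 32.5% lower. Called members were thus no more frequent than called genes in the whole comparison. Ifi203 had a log2 difference of 2.43 ± 0.40 (adjusted p = 9.21e-06), with 10.5 ± 0.764 CPM in PM_EPZ (SD, n = 3) and 1.95 ± 0.987 CPM in BV2_EPZ (SD, n = 2). Mnda had one of 1.87 ± 0.51 (adjusted p = 0.00195), with 2.45 to 5.28 CPM in PM_EPZ and 0.936 and 0.991 CPM in BV2_EPZ.

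Aim2 was lower in primary microglia, at 22.7 ± 0.586 CPM in PM_EPZ (SD, n = 3) and 35.5 ± 1.68 CPM in BV2_EPZ (SD, n = 2), a log2 difference of -0.64 ± 0.18 (adjusted p = 0.00294). Ifi204 had a log2 difference of -0.96 ± 0.46 (adjusted p = 0.0668) and was called under 5 of 18 alternatives, over which its adjusted p ran from 0.00916 to 0.392. Mndal differed by 0.11 ± 0.41 (adjusted p = 0.845), with an interval of -0.69 to 0.90. Ifi205 had 3 counts in PM_EPZ and 0 in BV2_EPZ, too few for a fold.

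With LPS all 6 members were higher in PM_EPZ_LPS than in BV2_EPZ_LPS, where 43.1% of all tested genes were called higher. The median log2 difference was 4.89 over the members and 0.29 over all tested genes. It was 5.12 ± 0.23 for Ifi203, 4.98 ± 0.24 for Mnda, 4.80 ± 0.26 for Ifi204 and 4.40 ± 0.21 for Mndal, and every PM_EPZ_LPS library lay above both BV2_EPZ_LPS libraries, as in 46.4% of all tested genes. Ifi205 had 1272 counts in PM_EPZ_LPS and 2 in BV2_EPZ_LPS, a ratio of 450.6 with a counting interval of 124.5 to 3724. Aim2 differed least, by 1.52 ± 0.17 (adjusted p = 7.32e-09), or 2.87-fold.

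Markers of several other cell types differed between primary microglia and BV2 cells as well. The 10 oligodendrocyte markers summed to 202.1 to 250.4 CPM in PM_EPZ_LPS, against 25.1 to 25.9 CPM in BV2_EPZ_LPS. The 7 neuron markers summed to 101.5 to 123.3 CPM in PM_EPZ_LPS and were all at 0 in BV2_EPZ_LPS. Of the 6 fibroblast markers 5 were at 0 in BV2_EPZ_LPS. The 6 endothelial and mural markers overlapped, at 10.2 to 15.3 CPM in PM_EPZ_LPS and 9.86 to 12.8 CPM in BV2_EPZ_LPS. The part of these cells in the differences between primary microglia and BV2 cells was not tested.

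The make-up of the summed counts of the 6 genes moved with treatment and cell type. Aim2 took 8.31%, 7.86% and 8.54% of the summed counts of the 6 genes in PM_EPZ_LPS, against 54.0%, 52.4% and 51.2% in PM_EPZ. In BV2 cells it took 57.5% and 47.4% in BV2_EPZ_LPS, against 75.9% and 74.0% in BV2_EPZ. By counts, which are not per length, Aim2 was the largest contributor of the 6 in all 7 libraries other than those of PM_EPZ_LPS. In PM_EPZ_LPS Ifi204 led the 6 with 33.4%, 30% and 31.2%. Among the other cluster symbols, Ifi202b and AI607873 had more counts than Ifi204 in PM_EPZ_LPS (6563 and 4077, against 3279 over the group). Ifi202b also had more than Aim2 in PM_EPZ (196 against 181). AI607873 had more than Aim2 in BV2_EPZ_LPS replicate 1 (87 against 84). Ifi203 held 25.3% to 26.6% in PM_EPZ_LPS and 23.0% to 25.2% in PM_EPZ.

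**Figure D4:**
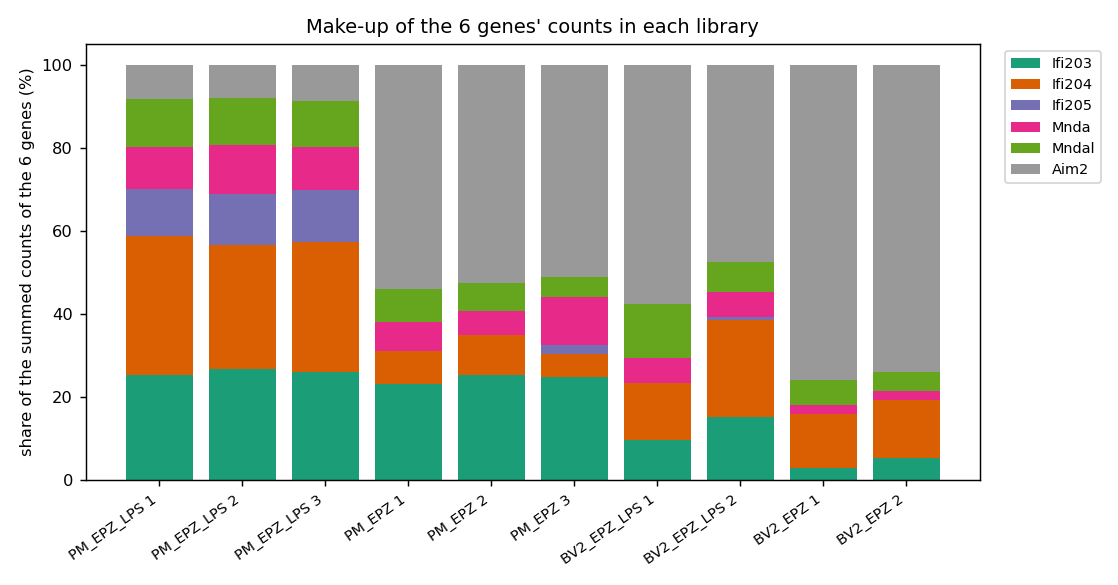
Share of each gene in the summed counts of the 6 genes, in percent, for each library (bars stack to 100). Aim2 takes 7.86% to 8.54% in the 3 PM_EPZ_LPS libraries and between 47.4% and 75.9% in the other 7.

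Such shares depend on gene length, so levels of different genes were also set side by side per kilobase of the longest GENCODE transcript. In PM_EPZ_LPS the order by mean CPM per kilobase was Ifi204 (154.5 ± 19.9), Ifi203 (77.7 ± 8.49), Mnda (68.2 ± 5.74), Mndal (62.8 ± 5.98), Ifi205 (41.6 ± 6.50) and Aim2 (32.7 ± 4.97; SD, n = 3). Libraries of Ifi203 and Mnda overlapped, as did those of Mnda and Mndal and those of Ifi205 and Aim2, so these neighbours were not separated. Ifi204 stood clear of the rest with this length. In PM_EPZ the order began with Aim2 (8.002 ± 0.205), which lay apart from Ifi203 (2.81 ± 0.203). Ifi203, Mnda (2.00 ± 0.840), Ifi204 (1.44 ± 0.355) and Mndal (1.37 ± 0.313) each overlapped the next, and Ifi205 came last (0.108 ± 0.186).

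In BV2_EPZ_LPS Aim2 led with 11.4 ± 2.03 CPM per kilobase, followed by Ifi204 (5.39 ± 3.48), Mndal (2.97 ± 0.259), Ifi203 (2.16 ± 1.29) and Mnda (2.11 ± 0.589), each overlapping the next after Aim2, with Ifi205 last (0.0861 ± 0.122; SD, n = 2). In BV2_EPZ the order was Aim2 (12.5 ± 0.590), Ifi204 (2.80 ± 0.312), Mndal (1.26 ± 0.172), Mnda (0.540 ± 0.0221), Ifi203 (0.518 ± 0.263) and Ifi205 at 0, and only Mnda and Ifi203 overlapped. Aim2 was thus first in 3 groups and last in PM_EPZ_LPS on this scale. The order in PM_EPZ_LPS depends on the length. With the median transcript length, 383 bases for Aim2, it was Aim2 (242.4 ± 36.9 CPM per kilobase), Ifi204 (179.3 ± 23.1), Mndal (142.1 ± 13.5), Ifi203 (95.5 ± 10.4), Mnda (68.2 ± 5.74) and Ifi205 (55.7 ± 8.71), so that Aim2 came first and Mndal passed both Ifi203 and Mnda.

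Of the 6 other symbols of the cluster, 5 were tested in primary microglia and all 5 rose. Of all genes tested there, 21.4% rose. Pyhin1, Pydc3 and BC094916 had at most 2 counts in any PM_EPZ library. They passed the filter on low counts only through the LPS libraries, so their rise followed from being tested. Ifi202b and AI607873 had counts enough in both groups. Ifi202b, which has HIN domains without a pyrin domain and in mouse cells can hold Aim2 back, had the highest level per kilobase of the cluster in PM_EPZ_LPS with either length, 414.6 ± 67.3 (SD, n = 3). It stood at 653.8, 622.6 and 834.1 CPM in PM_EPZ_LPS, against 23.2, 23.3 and 27.1 CPM in PM_EPZ (log2 fold change 4.82 ± 0.15, adjusted p = 4.1e-15). In all 4 BV2 libraries it had 0 counts. Against the floor of 3 counts over the group it was at least 1550-fold higher in PM_EPZ_LPS than in BV2_EPZ_LPS, and at least 51.2-fold higher in PM_EPZ than in BV2_EPZ. Mouse strain and cell type cannot be told apart in these differences.

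AI607873, listed by RefSeq under the symbol Ifi207, was expressed in both cell types. It stood at 459.5, 379.9 and 485.6 CPM in PM_EPZ_LPS, against 19.5, 25.8 and 23.2 CPM in PM_EPZ, and the log2 fold change was 4.26 ± 0.15 (adjusted p = 1.88e-14). In BV2 cells it stood at 29.2 and 34.9 CPM in BV2_EPZ_LPS, against 17.8 and 22.1 CPM in BV2_EPZ, with a log2 fold change of 0.72 ± 0.22 (adjusted p = 0.0884). The difference of these responses was 3.58 ± 0.26 (adjusted p = 2.34e-11), while the level without LPS differed by 0.19 ± 0.20 (adjusted p = 0.378).

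Pyhin1, listed by RefSeq as Ifi209, stood at 159.4, 133.0 and 180.6 CPM in PM_EPZ_LPS, against 0.749, 0.818 and 0 CPM in PM_EPZ (log2 fold change 8.16 ± 0.30, adjusted p = 1.28e-13). It had 1 count in all in BV2_EPZ_LPS and 1 in BV2_EPZ. The remaining symbols had no count in PM_EPZ or in any BV2 library. Pydc3 had 67 counts in PM_EPZ_LPS, BC094916 had 51 and Pydc4, which was not tested, had 15. Against the floor over the PM_EPZ group these were at least 19.3-fold, 14.7-fold and 4.32-fold higher. Summed over all 12 symbols the cluster reached 2378, 2165 and 2781 CPM in PM_EPZ_LPS, against 85.8, 92.0 and 95.7 CPM in PM_EPZ. In BV2 cells the sum was 78.2 and 111.8 CPM in BV2_EPZ_LPS, against 63.3 and 71.7 CPM in BV2_EPZ.

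**Figure D5:**
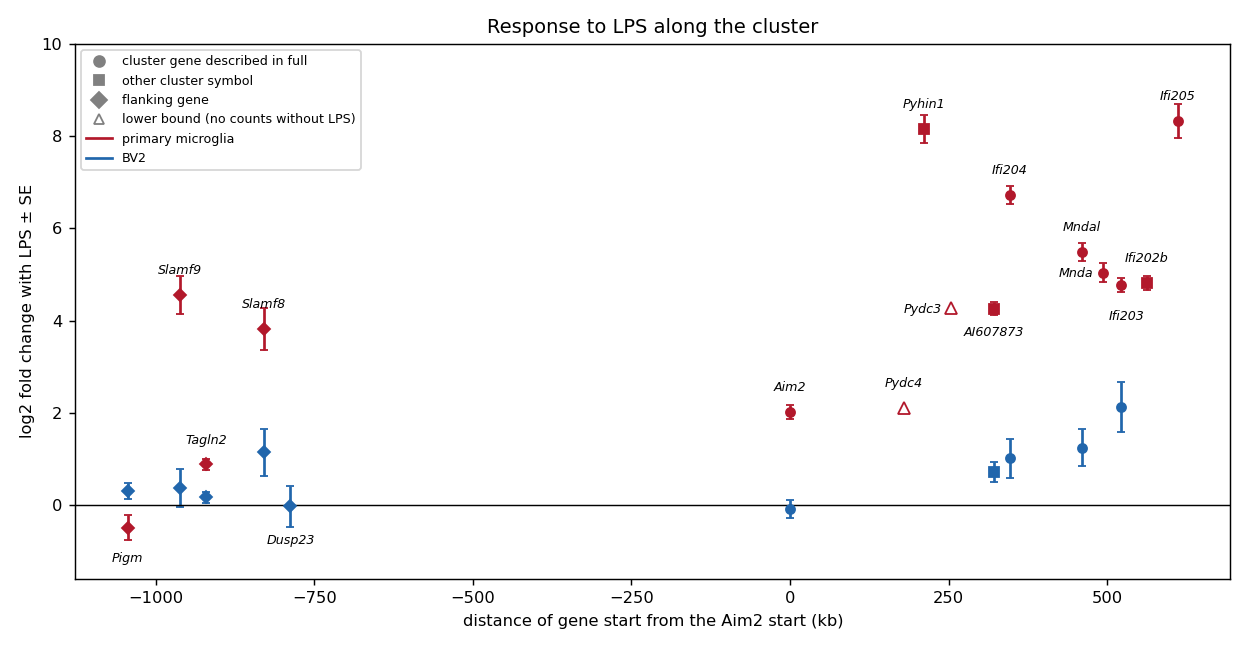
Log2 fold change with LPS (vertical axis; bars, SE) against the distance of each gene's start from the internal Aim2 start in kilobases, for the 6 genes, other cluster symbols and flanking genes (red, primary microglia; blue, BV2; open triangles, lower bounds against 3 counts). All red cluster symbols lie at 2.02 or above, and all blue ones at 2.12 or below.

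Genes that flank the cluster gave the local comparison. Of 12 flanking symbols in the files, 4 were tested in primary microglia and 3 rose, with a median log2 fold change of 2.35. Over all genes tested there, 21.4% rose and the median was -0.03. Slamf9 and Slamf8, surface receptors of the SLAM family, rose by 4.56 ± 0.41 (adjusted p = 2.99e-08) and 3.82 ± 0.45 (adjusted p = 1.15e-06), and the actin-binding gene Tagln2 rose by 0.88 ± 0.12 (adjusted p = 5.12e-06). Slamf9 stood at 12.1 to 18.99 CPM in PM_EPZ_LPS, against 0.375 to 0.818 CPM in PM_EPZ. Both Slamf9 and Slamf8 passed the filter on low counts only through the LPS libraries. Pigm, which acts in the synthesis of membrane anchors, had a log2 fold change of -0.49 ± 0.28 (adjusted p = 0.178). In BV2 cells 5 flanking genes were tested, with adjusted p-values of 0.332 for Slamf8 to 0.989 for Dusp23.

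The partners and outputs of the Aim2 inflammasome were read from a list of 14 symbols. The list also holds other sensors, such as Nlrp3 and Nlrc4, and the transcription factor Irf1. Its counts therefore do not describe the partners of Aim2 alone. In primary microglia 13 were tested, 9 rose and 1 fell, with a median log2 fold change of 1.55. Over all genes tested there, 21.4% rose and 17.8% fell, with a median of -0.03. Interleukin-1 beta, the main cytokine matured by inflammasomes, rose most (Il1b, 10.74 ± 0.19), followed by the sensor Nlrp3 (6.02 ± 0.20), the transcription factor Irf1 (5.44 ± 0.15) and the caspase that senses cytosolic LPS, Casp4 (4.79 ± 0.16). Casp1, the protease that Aim2 activates, stood at 121.2 to 153.1 CPM in PM_EPZ_LPS and at 12.3 to 16.2 CPM in PM_EPZ, a log2 fold change of 3.25 ± 0.16 (adjusted p = 2.34e-12).

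Pycard, the adaptor between Aim2 and Casp1, stood at 8.62 to 11.2 CPM in PM_EPZ_LPS and at 7.12 to 13.4 CPM in PM_EPZ. Those ranges overlapped, and the log2 fold change was 0.01 ± 0.27 (adjusted p = 0.978). In all 4 BV2 libraries Pycard had 0 counts, which allows 3 per library, while Aim2 and Casp1 were detected. BV2 cells had Casp1 at 12.8 and 22.8 CPM in BV2_EPZ_LPS, against 15.6 and 17.9 CPM in BV2_EPZ (log2 fold change 0.15 ± 0.28, adjusted p = 0.903). Of the 11 symbols of the list tested in BV2 cells 4 rose, with a median of 0.20. Over all genes tested there, 3.69% rose and the median was -0.01. The 4 were Il1b (7.87 ± 0.20), Nlrp3 (2.69 ± 0.16), Casp4 (2.08 ± 0.33) and Irf1 (1.73 ± 0.21).

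Of 17 symbols of cytosolic DNA sensing through cGAS and STING, all 17 were tested in primary microglia. There 11 rose and 1 fell, with a median log2 fold change of 2.25, while 21.4% of all tested genes rose and 17.8% fell. The interferon regulator Irf7 rose by 8.33 ± 0.23, the nucleic acid sensor Zbp1 by 6.08 ± 0.25 and the DNase Trex1 by 4.37 ± 0.19. Interferon beta itself (Ifnb1) stood at 10.97 to 12.1 CPM in PM_EPZ_LPS and had no count in PM_EPZ. The cGAS gene, listed as Mb21d1, stood at 4.78 to 15.3 CPM in PM_EPZ_LPS, against 1.41 to 2.04 CPM in PM_EPZ (log2 fold change 2.25 ± 0.56, adjusted p = 0.00661). The STING gene, listed as Tmem173, was the one that fell, at 5.09 to 7.34 CPM in PM_EPZ_LPS, against 13.1 to 18.3 CPM in PM_EPZ (log2 fold change -1.29 ± 0.26, adjusted p = 0.00053).

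In BV2 cells 15 of these symbols were tested and 2 rose, Ikbke (2.05 ± 0.16) and Trex1 (1.49 ± 0.30), with a median of 0.20. Of all genes tested there, 3.69% rose. Tmem173 stood at 44.2 and 52.0 CPM in BV2_EPZ_LPS, against 54.5 and 64.9 CPM in BV2_EPZ (log2 fold change -0.28 ± 0.17, adjusted p = 0.538). Mb21d1 had a log2 fold change of -0.04 ± 0.33 (adjusted p = 0.983). The STING gene was thus detected in every BV2 library, with and without LPS.

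The route from the interferon receptor to ISGF3, the complex that binds the ISRE, was read from 12 symbols. In primary microglia 10 of the 12 rose, with a median of 1.84, while 21.4% of all tested genes rose. Stat2 stood at 250.6 to 341.6 CPM in PM_EPZ_LPS, against 14.98 to 18.8 CPM in PM_EPZ (log2 fold change 4.04 ± 0.16, adjusted p = 1.16e-13). Its partner Irf9 stood at 105.2 to 118.3 CPM in PM_EPZ_LPS, against 19.6 to 21.1 CPM in PM_EPZ (log2 fold change 2.45 ± 0.14, adjusted p = 2.45e-11). In both genes every PM_EPZ_LPS library lay above every PM_EPZ library, as in 26.6% of all tested genes. The feedback inhibitors Usp18, Socs1 and Socs3 rose by 7.70 ± 0.19, 5.98 ± 0.27 and 5.11 ± 0.19.

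In BV2 cells 11 of the 12 were tested and 3 rose, with a median of 0.42, while 3.69% of all tested genes rose. The 3 were Socs3 (5.58 ± 0.37), Usp18 (1.55 ± 0.32) and Irf9 (1.44 ± 0.26, adjusted p = 0.00489). Stat2 stood at 7.05 and 9.30 CPM in BV2_EPZ_LPS, against 5.61 and 6.28 CPM in BV2_EPZ, with a log2 fold change of 0.50 ± 0.33 (adjusted p = 0.587). Its LPS libraries lay above both others, as in 17.1% of all genes tested there. Ifnb1 had at most 0.336 CPM in any BV2_EPZ_LPS library and no count in BV2_EPZ.

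Across the 10 libraries, which fall into 4 groups, the members had similar patterns. Pearson's r of log2(CPM + 1) ran from 0.849 between Ifi203 and Aim2 to 0.988 between Ifi205 and Mnda, a pair that shares transcript sequence. Among 9764 genes with a mean of at least 5 CPM, those most like Mndal were Il27, Gm12250 and Irgm1 (r of 0.997 to 0.998), and those most like Ifi204 were Slfn9, Usp18 and Kctd12 (0.991 to 0.993). Ifi205 was most like Fpr2, Bcl2a1a and Cxcl1 (0.997 to 0.998), Ifi203 most like Mmp13, Snx10 and Ncoa7 (0.992 to 0.995) and Mnda most like Prdx5, Tor1aip2 and Ptprj (0.994 to 0.996). Aim2 was most like Ctsl, Samhd1 and Rap2c (0.991 to 0.992). These values describe a shared pattern over groups with common libraries and carry no test.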

How the data were processed

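RNA of 10 libraries in 4 groups was depleted of ribosomal RNA, made into directional libraries and sequenced as paired ends, per the labels' protocols. The submitters' processing notes name CASAVA 1.8.2, Trimmomatic 0.33, STAR 2.5.1, the mm10 build and DESeq2 with no version. For the gene annotation, no name is given in the sources used here. The deposited counts are whole numbers of reads for each gene symbol, unstranded and per strand, and the authors' reverse-strand column (column 4) was used because it held nearly all stranded reads. Between 0.682% and 2.21% lay on the other strand.

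Entries without a gene held 70.4% to 79.5% of reads and were left out. Of all reads 7.64% to 11.8% were multimapping. Intervals and floors cover counting error only. The tests used edgeR 4.0.16 under R 4.3.3 (quasi-likelihood F test, robust, TMM, filterByExpr with minimum count 10 and minimum total 15, Benjamini-Hochberg over all tested genes). LPS responses were fitted within each cell type. The other 3 comparisons came from 1 fit of 4 groups over all 10 libraries, so comparisons share libraries. A gene low in 1 group can pass the filter through a group where it is high, also in the gene lists. Mnda and Ifi205 passed it in the fit of 4 groups through the primary libraries. The biological coefficient of variation was 13.1% in primary microglia and 11.4% in BV2 cells. The scripts were tested on simulated data. Alternatives were DESeq2 1.42.0, other scalings and filters, unstranded counts, abundant structural RNAs left out, the replicate block and leaving out each library.

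The named genes are the 6 members, the other cluster symbols in the files and, per pathway list, the 4 largest called changes in primary microglia plus key partners. Members and lists were chosen with earlier results of these data known. No pair of replicates agreed within sampling noise (lowest chi-square per degree of freedom 1.52), and each was counted once. Sequences are from RefSeq (GRCm38.p6) and transcript lengths from GENCODE vM21. A planned comparison of protein sequences was not made. Values of 1 gene that the naming rule covers are not reported here.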

Additional observations from a re-analysis of the deposited data

Results flagged for a closer look

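The response to LPS differed between primary microglia and BV2 cells, by the test of the difference itself over all 10 libraries, in 5 of the 6 genes. Among all 11626 genes tested, 8.65% had a difference called higher. The difference of log2 fold changes was 5.76 for Ifi204, 4.30 for Mndal, 3.11 for Mnda, 2.69 for Ifi203 and 2.16 for Aim2. Those of Mnda and Ifi203 rest on few BV2 counts. In each of the 5 genes all 3 PM_EPZ_LPS libraries lay above all 3 PM_EPZ libraries, as in 26.6% of all genes tested there. In BV2 cells both LPS libraries lay above both others in Ifi203, Mnda and Mndal, of which Mnda was not tested there, and the same held for 17.1% of all genes tested there, while those of Ifi204 and Aim2 overlapped the libraries without LPS.

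Reads also fell in the column for the other strand, which the main comparisons do not use and which enters only the alternative with unstranded counts. The 6 genes together had 13, 56 and 18 reads there in PM_EPZ_LPS replicates 1, 2 and 3, against 0, 1 and 0 in PM_EPZ, where a count of 0 allows 3. These reads made up 0.465%, 1.72% and 0.402% of the stranded reads of the 6 genes. Over all genes the share on that strand was 0.946%, 2.21% and 1.10% in the same libraries, above that of the 6 genes in each. Dixon's test for an outlying library was not run, since no group holds 4 libraries.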

How the results depend on the processing

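Over 37 results, 485 of 515 recomputed values kept their direction and their side of the threshold, or moved by less than 1 SD or 1.5 times. The count of 6 members called in primary microglia, and of 6 higher in primary microglia with LPS, held under every alternative run. In BV2 cells the count of 1 became 0 with DESeq2, 0 with the stricter filter (minimum count 30), 3 with no filter (Ifi203, Ifi204 and Mnda) and 2 in the fit of 4 groups (Ifi203 and Mnda), and it ran from 0 to 2 when single libraries were left out. The count of 5 differences ran from 3 to 5 without single libraries, and was 6 with DESeq2, which called Ifi205 too. Aim2 in BV2 cells ran from -0.29 to 0.084 without single libraries, and was above 0 without BV2_EPZ_LPS replicate 1. The difference of Mndal between cell types without LPS was -0.19 without TMM and ran from -0.041 to 0.34 without single libraries, below 0 without PM_EPZ replicate 1 and without BV2_EPZ replicate 2 (-0.030). Neither gene passed the test in any of these.

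Correlations of deviations between same-numbered primary libraries were 0.190, -0.0875 and 0.206. They do not settle whether these libraries were paired. With the replicate block the counts were 6, 1, 5, 4 and 6 in the 5 comparisons, and the added call was Ifi205 without LPS.

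Over all genes, called genes fell to 2456, against 4178, without TMM in primary microglia and to 698, against 1418, for the difference. In BV2 cells they were 318 with DESeq2 and 800 without BV2_EPZ_LPS replicate 1, against 485. Upper-quartile factors moved the median of all genes in primary microglia to -0.23, and scaling by library size alone to 0.10. Between the cell types without LPS the median of all genes was 0.23, and -0.06 without TMM. Depth limits Ifi205, Mnda, Mndal and Ifi203 in BV2 cells, with 0 to 55 counts per group. The causes were not tested.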
